A study of Mus musculus with 2 samples.

Results

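The genes Mir708, Mir31 and Mir489 encode miRNAs with a known role in keeping muscle stem cells quiescent. They were chosen for that role, with earlier results of these data known. They are 3 of the 2202 miRNA genes listed in the deposited tables, of which 1506 had no count in either library. The counts come from microRNA-seq of gastrocnemius, a calf muscle, from 2 male B6CASTF1/J mice aged 10 days, the F1 hybrid of a C57BL/6 and a CAST strain. Both libraries belong to 1 group with no treatment or second genotype, so the values describe the level of each gene and the spread between 2 libraries. Biological replicates 1 and 2 carry different animal numbers in the labels but share 1 donor entry, so whether the spread is fully biological is not known.

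Satellite cells are the stem cells of skeletal muscle. They lie between the muscle fibre and its basal lamina, contribute nuclei to the fibre during postnatal growth, and later rest in quiescence until injury. In mouse satellite cells, miR-489 is known to repress Dek, a gene that promotes proliferation. miR-31 is known to hold back translation of the myogenic factor Myf5. miR-708 is known to act downstream of Notch signalling and to repress Tensin 3, a focal adhesion component involved in migration. All 3 genes make a hairpin precursor from which the 5p and 3p arms are cut, and bases 2 to 8 of the arm, the seed, do most of the target recognition.

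The 6 mature arms are shown to make visible that the 3 genes share no seed with each other. The sequences are those of RefSeq on GRCm38.p6, where all 3 genes were matched, and capitals mark the seed.
miR-708-5p: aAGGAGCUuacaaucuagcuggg
miR-708-3p: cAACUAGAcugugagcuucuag
miR-31-5p: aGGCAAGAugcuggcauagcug
miR-31-3p: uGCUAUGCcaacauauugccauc
miR-489-5p: uGUCAUAUgugugaugacacuuucu
miR-489-3p: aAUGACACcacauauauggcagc

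Each of 2 arms shared its seed with exactly 1 other mature sequence among the 1738 in the RefSeq table, and the other 4 arms shared theirs with none. Those 2 partners are shown because their levels are set beside the members further on.
miR-28a-5p: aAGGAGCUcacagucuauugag
miR-425-5p: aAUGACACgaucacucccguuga
Counted from 1 at the 5′ end, miR-708-5p and miR-28a-5p were identical over their first 8 bases. Over the 22 bases that can be set against each other without a gap they shared 16, and the changes from miR-708-5p to miR-28a-5p were U9C, A13G, G18U, C19U, U20G and G21A. miR-489-3p and miR-425-5p were also identical over their first 8 bases, but shared only 12 of 23.

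The genes lie in 3 different settings (mm10, GENCODE M21). Mir708 lies on chromosome 7, from 96249424 to 96249532 on the plus strand, in an intron of Tenm4, which encodes a teneurin membrane protein. Mir31 lies on chromosome 4, from 88910557 to 88910662 on the minus strand, within an exon of AL805899.1, a long non-coding RNA gene. Mir489 lies on chromosome 6, from 3721897 to 3722003 on the minus strand, in an intron of Calcr, the calcitonin receptor gene, a known marker of quiescent satellite cells. Another miRNA gene, Mir653, lies 511 bp from Mir489 in the same host gene. Tenm4 hosts 1 further miRNA gene, Mir6394.

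The libraries differed moderately in depth. Of the 9678334 reads of replicate 1, 3999172 fell in miRNA genes, against 5062714 of the 12889382 reads of replicate 2. Levels are given as counts per 1000000 assigned counts (CPM), and intervals are exact Clopper-Pearson intervals at 95%, which cover counting error only. The limit that a count of 0 allows, 3 counts, stood at 0.750 CPM in replicate 1 and at 0.593 CPM in replicate 2. The 4 skeletal muscle miRNA genes Mir206, Mir133b, Mir499 and Mir208b all had at least 10 counts in both libraries, as did 14.2% of all miRNA genes. Of the markers of other cell types, 6 of 6 leukocyte, 4 of 7 epithelial and 1 of 7 nerve genes also reached that count. So did 2 of 2 erythroid, 2 of 2 smooth muscle, 5 of 6 fibroblast and 1 of 2 endothelial genes. That count is a low bar and cannot test the tissue label.

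The 3 genes together took a small part of the miRNA counts, and nearly all of it was Mir708. They held 0.0260% of the assigned counts in replicate 1 and 0.0318% in replicate 2, or 0.0289% ± 0.0041 (SD, n = 2). Mir708 made up 90.6% of the members' counts in replicate 1 and 94.4% in replicate 2. Of the 3 genes, Mir708 and Mir31 had at least 10 counts in both libraries, which was true of 14.2% of all miRNA genes. In bulk muscle, fewer cells of a type and less RNA per cell cannot be told apart.

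Mir708 was the most abundant member. It had 942 counts in replicate 1 and 1519 counts in replicate 2, which gave 236 CPM (interval 221 to 251) and 300.0 CPM (interval 285 to 316), or 268 ± 46 CPM (SD, n = 2). Replicate 1 was the lower library, and the 2 intervals did not overlap. By mean level Mir708 held rank 126 of the 2202 genes, at rank 135 in replicate 1 and rank 120 in replicate 2. The nearest genes above it were Mir18, of the growth-associated Mir17-92 cluster, at 279 ± 11 CPM and Mir181a-1, known to be induced as myoblasts differentiate, at 269 ± 13 CPM. Next below stood Mir107 at 265 ± 11 CPM and Mir27a, known to repress the satellite cell factor Pax3, at 264 ± 17 CPM. The means of these 4 genes differed from that of Mir708 by less than its SD.

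Mir31 was present at a lower level. It had 85 counts in replicate 1 and 81 counts in replicate 2, which gave 21.3 CPM (interval 17.0 to 26.3) and 16.0 CPM (interval 12.7 to 19.9), or 18.6 ± 3.7 CPM (SD, n = 2). Replicate 1 was the higher library, and the intervals overlapped. Mir31 held rank 233. Its neighbours by level were Mir511 at 20.6 ± 5.5 CPM and Mir378d at 20.2 ± 5.4 CPM above, and Mir701 at 18.5 ± 0.045 CPM and Mir26a-2 at 17.7 ± 0.12 CPM below, none of which differed from it by more than its SD.

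Mir489 was near the lower end of what these libraries resolve. It had 13 counts in replicate 1 and 9 counts in replicate 2, which gave 3.25 CPM (interval 1.73 to 5.56) and 1.78 CPM (interval 0.813 to 3.37), or 2.51 ± 1.04 CPM (SD, n = 2). Both counts exceeded the 3 counts that a count of 0 allows, and the intervals overlapped. Mir489 held rank 320. Mir29b-1 at 2.56 ± 0.27 CPM and Mir429 at 2.53 ± 0.048 CPM stood just above it, and Mir7021 at 2.51 ± 0.36 CPM and Mir8111 at 2.47 ± 1.81 CPM just below, all within its SD.

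The order Mir708, Mir31, Mir489 held in both libraries, with gaps wider than the spread between them. Mir708 had 11.1 times the counts of Mir31 in replicate 1 (interval 8.87 to 14.01) and 18.8 times in replicate 2 (interval 15.0 to 23.8). Mir31 had 6.54 times the counts of Mir489 in replicate 1 (interval 3.63 to 12.8) and 9.00 times in replicate 2 (interval 4.51 to 20.4). The hairpins are of similar length, 109 nt for Mir708, 106 nt for Mir31 and 107 nt for Mir489. Per nucleotide of hairpin, the levels in replicate 1 were 2.16 CPM for Mir708, 0.201 CPM for Mir31 and 0.0304 CPM for Mir489. In replicate 2 they were 2.75, 0.151 and 0.0166 CPM per nucleotide in the same order of genes.

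**Figure D1:**
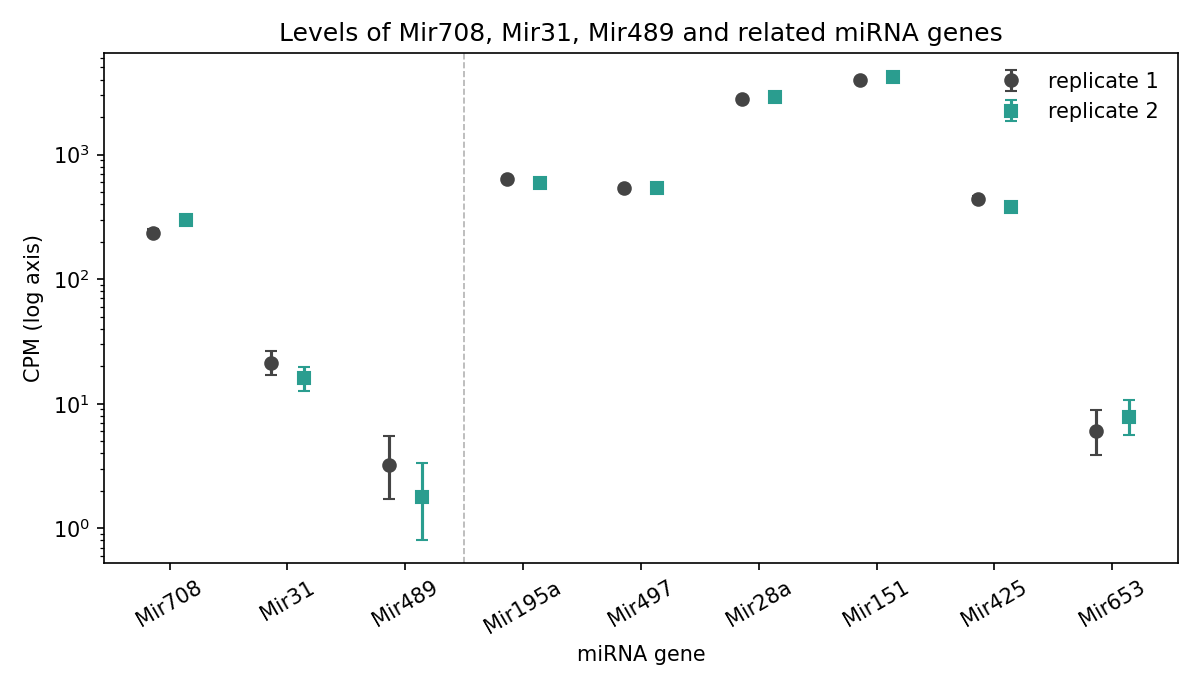
CPM (log axis) of the 3 genes, left of the dashed line, and of 6 related miRNA genes, right of it. Circles are replicate 1, squares replicate 2, and bars are exact 95% intervals of counting error, hidden where smaller than the symbol; Mir708, Mir31 and Mir489 step down from 268 to 18.6 and 2.51 CPM on average.

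**Figure D2:**
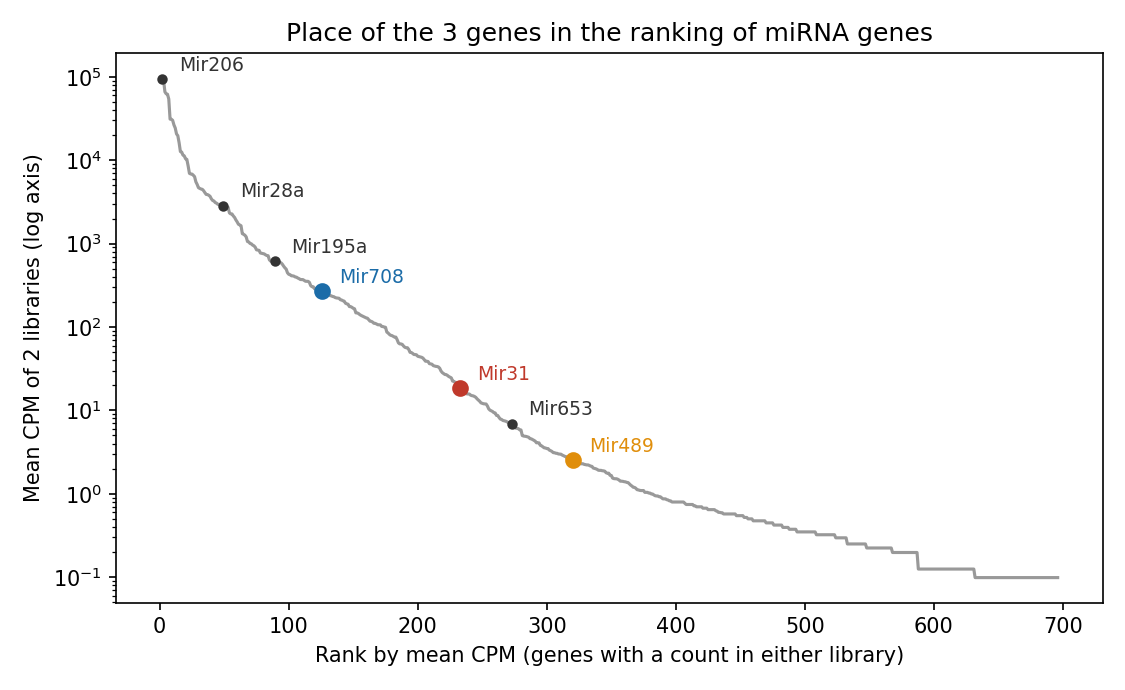
Mean CPM of the 2 libraries (log axis) against rank, for miRNA genes with a count in either library (grey line). Coloured points are Mir708 at rank 126, Mir31 at rank 233 and Mir489 at rank 320, and black points are 4 other genes named in the text.

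Sequence bears on how far the Mir708 value can be read as a level. The longest stretch that Mir708 shares with another annotated miRNA gene is 23 nt, hairpin positions 28 to 50, with Gm23134 (chromosome 2, 157562361 to 157562447, minus strand). That stretch holds 22 of the 23 bases of miR-708-5p, all but its first. The full 23 bases were found in no other annotated miRNA gene. Whether reads that include the first base were kept as unique is not known. Gm23134 itself had 2 counts in replicate 1 and 2 counts in replicate 2. Reads that match several places were counted for no gene, and they were 47.0% of replicate 1 and 48.0% of replicate 2. How many of them were miR-708-5p was not tested, and the Mir708 counts are uncertain to that extent. For Mir31 and Mir489 no stretch of 14 nt or more was shared in the same sense with another annotated miRNA gene. On the opposite strand, Mir708 had 1 read in each library, and Mir31 and Mir489 had 0.

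Both genes that share a seed with a member were more abundant than that member in each library. Mir708 had 0.0841 times the counts of Mir28a in replicate 1 (interval 0.0786 to 0.0899) and 0.103 times in replicate 2 (interval 0.0973 to 0.108). Mir28a stood at 2863 ± 86 CPM. Mir489 had 0.00737 times the counts of Mir425 in replicate 1 (interval 0.00391 to 0.0126) and 0.00466 times in replicate 2 (interval 0.00213 to 0.00886), with Mir425 at 411 ± 42 CPM. Counts are per hairpin, so it is not known which arm of any of these genes they came from. Of the other relatives of Mir708 by sequence, Mir151 had 4082 ± 168 CPM, Mir28b had 2 and 4 counts in replicates 1 and 2, and Mir28c had 0 and 2 counts. Mir28a and Mir151 were both lower in replicate 1 past the exact test described further on, with log2 ratios of replicate 1 over replicate 2 of -0.13 and -0.16.

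The host gene partners, Mir653 and Mir6394, had few or no counts. Mir489 had 0.542 times the counts of its neighbour Mir653 in replicate 1 (interval 0.253 to 1.11) and 0.225 times in replicate 2 (interval 0.0960 to 0.471). Mir653 had 24 counts in replicate 1 and 40 counts in replicate 2, or 6.95 ± 1.34 CPM, and the interval of the ratio included 1 in replicate 1 but not in replicate 2. Mir6394, the other miRNA gene in Tenm4, had 0 counts in both libraries.

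Between the libraries, Mir708 differed beyond counting error, and no difference was shown for Mir31 or Mir489. Mir708 was lower in replicate 1, with a log2 ratio of replicate 1 over replicate 2 of -0.42 (interval -0.54 to -0.30, exact binomial test with TMM-scaled totals, Benjamini-Hochberg adjusted p = 1.19e-11). Among the 332 genes tested, those whose counts averaged 10 or more, 39.5% differed, and 27.1% were lower in replicate 1, so such a call was common. A log2 ratio at least as far from 0 as that of Mir708 was found in 21.1% of the tested genes. That share pools genes of all count levels, and ratios spread more widely at low counts. Among the 61 genes with a summed count within a factor of 2 of that of Mir708, itself included, 25 differed. Their median absolute log2 ratio was only 0.10, so the ratio of Mir708 was large for its count. edgeR's negative binomial exact test also takes spread beyond counting error into account, and Mir708 did not pass it (adjusted p = 1.0). The spread that edgeR's test used was estimated from these same 2 libraries, so a difference between them counts as spread. It therefore cannot decide whether Mir708 differed. Both tests compare 2 libraries of 1 group, not conditions.

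Mir31 and Mir489 had ratios in the other direction that did not pass. The log2 ratio of replicate 1 over replicate 2 was 0.34 for Mir31 (interval -0.12 to 0.80, exact binomial adjusted p = 0.253). It was 0.80 for Mir489 (interval -0.54 to 2.21, adjusted p = 0.341 by the exact test), an interval that spans differences in either direction. Mir653, the neighbour of Mir489, had a log2 ratio of -0.47 (interval -1.26 to 0.30), which did not pass either. Genes with a summed count within a factor of 2 of that of Mir489 numbered 50, itself included, and had a median absolute log2 ratio of 0.52. Around Mir31 there were 51 genes with a median of 0.25, and around Mir708 there were 61 with a median of 0.10.

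**Figure D3:**
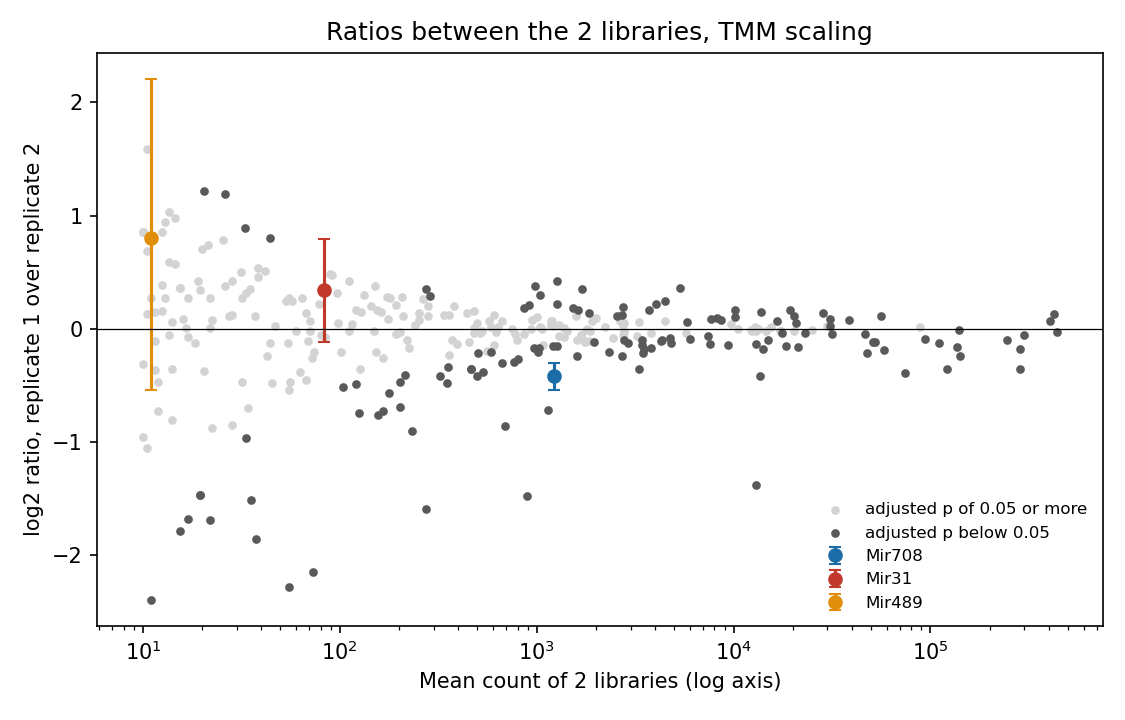
Log2 ratio of replicate 1 over replicate 2, with TMM scaling, against the mean count of the 2 libraries (log axis) for the 332 tested genes. Dark points have an exact binomial adjusted p below 0.05, and coloured points with 95% intervals are the 3 genes, of which only Mir708 has an interval that does not include 0.

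Markers of other cell types also moved between the libraries. The erythroid pair Mir451a and Mir144, both with counts in each library, summed to 1680 CPM in replicate 1 and 4088 CPM in replicate 2. Endothelial Mir126a and Mir126b summed to 55784 CPM in replicate 1 and 67925 CPM in replicate 2. That sum was almost all Mir126a, since Mir126b had 1 count in replicate 1 and 2 counts in replicate 2. Like Mir708, Mir451a, Mir144 and Mir126a were lower in replicate 1 past the exact test, as were 2 of the 4 skeletal muscle markers, Mir499 and Mir208b, hosted by slow myosin genes. Of the other 2, Mir206 was higher in replicate 1 past that test, with a log2 ratio of 0.13, and Mir133b, with 0.28, did not pass. Over all tested genes 27.1% were lower and 12.3% higher in replicate 1. With plain library totals 62 genes were lower and 79 higher, so the more common direction depends on the scaling. Of the 7 epithelial markers, 4 had at least 10 counts in both libraries, as did 14.2% of all miRNA genes. The epithelial list summed to 90.8 CPM in replicate 1 and 71.9 CPM in replicate 2. Mir205, a keratinocyte miRNA of that list, had 34 counts in replicate 1 and 18 counts in replicate 2 and was higher in replicate 1 past the test (log2 ratio 1.19). Mir203 had 274 counts in replicate 1 and 287 counts in replicate 2 and did not pass. Mir141 had 5 counts in replicate 1 and 0 in replicate 2. The smooth muscle pair summed to 24571 CPM in replicate 1 and 29713 CPM in replicate 2. In the same order of libraries, the 6 fibroblast markers summed to 4922 and 4433 CPM, the 6 leukocyte markers to 1720 and 1685 CPM, and the 7 nerve markers to 474 and 423 CPM. Single members passed the test as lower in replicate 1 for smooth muscle (Mir143, log2 ratio -0.35) and leukocytes (Mir155, -0.21, and Mir142, -0.34), and as higher for fibroblasts (Mir214, 0.36). The other smooth muscle marker, Mir145a, with a log2 ratio of 0.05, did not pass. With plain library totals Mir155 did not pass. Under that scaling Mir145a, the leukocyte marker Mir146, the fibroblast marker Mir21a and the nerve marker Mir338 passed as higher in replicate 1. Nearly all of the nerve sum was Mir338, at 473 CPM in replicate 1 and 421 CPM in replicate 2. Mir9-2, Mir124a-2 and Mir124a-3 had 0 counts in both libraries, but these are copies of multi-copy miRNAs whose reads can match several places, so the 0 does not show absence. Mir199a-1 and Mir199a-2 of the fibroblast list are also copies of a multi-copy miRNA, so the fibroblast sum is uncertain. The part of these cell types in the ratios of Mir708, Mir31 and Mir489 was not tested.

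Other miRNAs known to promote satellite cell quiescence stood above the 3 genes in both libraries. Mir195a and Mir497, a pair known to repress cell cycle genes in satellite cells, had 612 ± 31 CPM and 537 ± 2 CPM. Mir708 had 0.372 times the counts of Mir195a in replicate 1 (interval 0.344 to 0.401) and 0.509 times in replicate 2 (interval 0.478 to 0.541). Neither Mir195a, with a log2 ratio of replicate 1 over replicate 2 of 0.03, nor Mir497, with -0.08, passed the exact test, although Mir195a did, as higher in replicate 1, with plain library totals. Of the 5 quiescence genes, 4 had at least 10 counts in both libraries, 0 were higher and 1, Mir708, was lower in replicate 1. Over all miRNA genes, 14.2% reached that count, and of the tested ones 12.3% were higher and 27.1% lower in replicate 1, so 1 lower gene of 5 is near the background. The median log2 ratio of the 5 was 0.03, against -0.02 over all tested genes.

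The 20 listed miRNAs of myogenic progenitors and differentiation spanned a wider range of levels. In both libraries 17 of them reached 10 counts, as did 14.2% of all miRNA genes. Of the 19 that were tested, 3 were higher and 2 lower in replicate 1, with a median log2 ratio of 0.06. Over all tested genes 12.3% were higher and 27.1% lower, and 39.5% differed in either direction. Mir206, which is specific to skeletal muscle and known to repress the satellite cell factor Pax7, led at 94022 ± 9301 CPM. Mir708 had 0.00234 times the counts of Mir206 in replicate 1 and 0.00343 times in replicate 2. Mir206, Mir214 and Mir501 were the 3 genes higher in replicate 1. Mir1a-2 and Mir486, itself known to repress Pax7, were the 2 lower ones, but with plain library totals Mir486 did not pass and Mir27b passed as higher. Mir27b had 2147 ± 119 CPM, Mir501, known from activated satellite cells, had 612 ± 79 CPM, and Mir221 had 127 ± 9 CPM, all above Mir31 and Mir489 in both libraries. Listed genes below Mir31 in both libraries were Mir222, at 10.4 ± 0.48 CPM, Mir181a-2, Mir133a-1, Mir133a-2, Mir1a-1 and Mir26a-1. The Mir1a, Mir133a, Mir125b, Mir181a and Mir26a genes of this list are copies of multi-copy miRNAs, whose reads can match several places, and their counts are uncertain for that reason.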

How the data were processed

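For each library the authors deposited a count table of 2202 miRNA genes, in raw reads, plus 4 summary rows. Per the metadata text deposited beside the tables, the assembly was mm10 and the annotation GENCODE M21. The aligner and the counter were not given in the sources used here. The tables have 3 count columns, without regard to strand and for each strand, and no header. The column with the larger total, 5.61 and 5.47 times the other strand's in replicates 1 and 2, was used as the sense strand. Summary rows, 58.7% and 60.7% of reads, were left out of the totals.

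CPM and intervals were computed in Python 3.11.15 with scipy 1.17.1. Ratios between libraries were tested with a two-sided exact binomial test, given TMM-scaled totals from edgeR 4.0.16, over genes averaging 10 or more counts and with Benjamini-Hochberg adjustment at 0.05. A quasi-likelihood test was not possible with 1 group. DESeq2 1.42.0 gave alternative size factors. Counts of both libraries differed by a chi-square statistic of 85.7 per degree of freedom, so they were kept as separate samples. Named genes are the 3 members, their 2 neighbours by mean level on each side, genes sharing a seed, host or 10 kb window, and the listed genes. The members and lists were chosen with earlier results of these data known.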

Additional observations from a re-analysis of the deposited data

How the results depend on the processing

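Of 44 alternative values, 35 were rated unchanged. Ratios so rated kept their direction and their side of the threshold, and levels stayed within the spread between the libraries. Some of the 44 could not move: the order without 1 replicate was fixed once it held in both libraries. Log2 ratios under another minimum count were also fixed, and only their adjusted p could change. The 44 also hold numbers of genes, which have neither a direction nor such a spread. With all reads as the denominator the mean level fell to 108 CPM for Mir708, 7.53 CPM for Mir31 and 1.02 CPM for Mir489, and their joint share was 0.0116%. In the unstranded column, where reads at genes overlapping on opposite strands are ambiguous and the total is smaller, Mir708 had 327 CPM, Mir31 22.7 CPM and the joint share was 0.0353%. With edgeR's negative binomial exact test the log2 ratio of Mir708 was still -0.42 but did not pass, and 6 genes differed between the libraries in place of 131. The spread that test allows for was estimated from these same 2 libraries, so it cannot decide whether they differ. Under the other 5 alternatives the adjusted p of Mir708 lay at or below 2.74e-08. Of the 131 genes, 41 were higher and 90 lower in replicate 1, but with plain library totals 79 were higher and 62 lower, while none of the 3 genes changed sign. Without 1 replicate the mean level was 236 to 300.0 CPM for Mir708, 16.0 to 21.3 CPM for Mir31 and 1.78 to 3.25 CPM for Mir489, and their order held. These ranges and that of the joint share were not counted among the 44, since a mean of 2 libraries always lies within 1 SD of each. Mir489 was not tested with a mean of at least 50 counts, since it does not reach it. No paired analysis was possible because the labels give 1 group. Mir489 rests on 9 to 13 counts, and its intervals are wide at that depth.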
